A study of Mus musculus with 4 samples.

Results

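The cells described here are mature dendritic cells (DCs) of B16-F10 mouse melanoma tumors in which no transcript of Il12b or Cd70 was detected. A barcode was a member when it had at least 500 detected genes, at most 10% mitochondrial UMIs (unique molecular identifiers, each counting 1 captured transcript), at least 3 UMIs of Ccr7, at least 1 UMI of Fscn1, no UMI of Cd70 or Il12b, and fewer than 5 UMIs of C1qa, C1qb and C1qc per 10000. This selected 592 of the 26882 barcodes that passed the filter on genes and mitochondrial UMIs, out of 32523 barcodes in all. They are referred to as double-negative mature DCs. The members were thus chosen by the measured UMIs of these 7 genes, whose levels are a description and not a result. B16-F10 is a melanoma cell line of C57BL/6 origin that was grown subcutaneously in C57BL/6 mice, and the tumors were injected on day 12 with adenovirus. Ad-Null tumors received an adenovirus labelled NULL, Ad-MEM40 tumors an adenovirus labelled ISF35, Ad-mIFNB tumors an adenovirus labelled mIFNB, and Ad-COMBO tumors both ISF35 and mIFNB. As background, ISF35 and MEM40 are names of an engineered, membrane-bound CD40 ligand, and mIFNB stands for mouse interferon beta. All groups were adenovirus-injected tumors of the same line and strain, and none was left without virus. Each group was 1 library of sorted CD11c+ MHC-II+ cells pooled from 3 tumors. There was therefore no replicate of any treatment, and treatments are compared below by levels with counting intervals, not by a test.

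Dendritic cells take up antigen in tissues and, once they mature, raise the chemokine receptor CCR7, bundle actin with fascin (Fscn1) and travel to lymph nodes, where they present antigen to T cells. Il12b encodes the p40 subunit of interleukin 12, which drives interferon gamma production by T cells. Cd70 encodes a ligand that costimulates T cells through CD27, and signals through CD40 are a known inducer of both. Interferon beta binds its receptor and activates transcription factors that bind interferon-stimulated response elements in genes such as Ifit3, Rsad2 and Cxcl10. The NF-kB subunits that act downstream of CD40 bind a different element, found in genes such as Ebi3. Mature DCs arise from both conventional lineages: cDC1, which use IRF8 and BATF3 and carry Xcr1 and Clec9a, and cDC2, which carry Sirpa, Cd209a and Clec10a.

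The members numbered 208 in Ad-Null, 278 in Ad-MEM40, 71 in Ad-mIFNB and 35 in Ad-COMBO. Every set of 4 values below keeps this order. Members made up 2.38%, 1.78%, 3.92% and 5.22% of the barcodes that passed, and held 3825434, 2662304, 959063 and 402865 UMIs in all. Without the C1q term of the rule, the members would have numbered 309, 581, 91 and 40. That term left out the most barcodes in Ad-MEM40, and the low Ad-MEM40 share of the barcodes that passed depends on it. Depth differed between libraries, with a median of 15040, 7454, 12119 and 10394 UMIs and 3226, 2214, 2784 and 2415 genes per member barcode. Mitochondrial UMIs were a median of 1.90%, 1.57%, 0.775% and 0.836%, lower in both libraries with mIFNB. Doublet calls covered 19, 38, 1 and 0 of the members. Thinning to 5000 UMIs, used below to compare barcodes at equal depth, left out 17, 67, 13 and 9 shallower members. Between 0 and 63 barcode sequences were shared by any pair of libraries, and 1 of the 592 members had such a barcode. Levels are UMIs per 1000000 (CPM) of the members of a library summed together, with exact Poisson 95% intervals in parentheses. These intervals cover counting error only, not differences between mice, tumors or sorts.

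The label was checked with Cacnb3, a calcium channel subunit gene, and Il4i1, an enzyme that degrades aromatic amino acids, both known from mature DCs and neither used by the rule. Cacnb3 was at 254, 314, 272 and 389.7 CPM in the members, against 3.30, 4.29, 5.83 and 17.5 CPM in barcodes without Ccr7. Il4i1 was at 468, 464, 521 and 663 CPM, against 7.23, 9.09, 9.63 and 19.7 CPM. Both genes were many times higher in the members of every library, so the name was kept. After thinning each barcode to 5000 UMIs, 63.4%, 66.8%, 63.8% and 73.1% of the members had a Cacnb3 UMI, against 0.904%, 1.42%, 2.27% and 0% of the barcodes rich in C1q transcripts, which are macrophage-like and served as the measure of free RNA. Median depth before thinning was 16480.5, 10342, 15749.5 and 16357 UMIs in those C1q-rich barcodes.

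At the edge of the rule, barcodes with exactly 3 Ccr7 UMIs numbered 11, 20, 5 and 1, and those with 2, which were left out, 14, 31, 6 and 4. Cacnb3 stood at 99.5, 109.9, 155 and 0 CPM just inside and at 25.7, 88.0, 315 and 319 CPM just outside, so this edge did not separate the marker in the libraries with few barcodes. For Fscn1 the edge was sharper: Cacnb3 was at 151, 141, 127 and 225 CPM with 1 Fscn1 UMI and at 29.8, 44.9, 33.8 and 103 CPM in the 190, 285, 67 and 38 barcodes with none. Barcodes left out only for a single Cd70 UMI, with no Il12b UMI, numbered 19, 31, 4 and 8. Those left out only for a single Il12b UMI, with no Cd70 UMI, numbered 21, 37, 8 and 5. Barcodes left out only for C1q numbered 17, 44, 5 and 2 at 5 to 10 on the scale of the rule. At 10 or more they numbered 84, 259, 15 and 3. Cacnb3 was at 243, 225, 159 and 194 CPM in the former and at 102, 122, 129 and 391 CPM in the latter.

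The sequences of 4 promoters are shown, chosen after the values were seen, as examples that hold the letters searched in genes described below: Ifit3, Rsad2 and Cxcl10 of the interferon response, and Ebi3, which differed between classes of mature DC. The window of Ltb, a gene higher in the members than in Cd70-positive mature DCs, held 1 match to the NF-kB-like letters. The windows of Cd81 and Dll4 held none of the NF-kB-like letters, and that of Ly6c2 none of the response-element letters. Each runs from 250 bases before the start site to 50 after it, 5′ to 3′ on the gene's strand, from RefSeq on GRCm38.p6. Capitals mark matches, on either strand, to letters of an interferon-stimulated response element (GAAA, any 2 bases, GAAA) in the first 3 and to NF-kB-like letters (GGGA, any 4 bases, CC) in Ebi3.
Ifit3 (chr19.0:34583279-34583578, plus strand): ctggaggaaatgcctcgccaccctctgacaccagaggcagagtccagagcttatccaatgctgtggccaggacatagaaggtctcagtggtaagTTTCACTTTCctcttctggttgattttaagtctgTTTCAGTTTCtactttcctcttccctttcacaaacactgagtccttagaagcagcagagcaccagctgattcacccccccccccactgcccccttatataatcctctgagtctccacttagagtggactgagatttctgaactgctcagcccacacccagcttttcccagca
Rsad2 (chr12.0:26456403-26456702, minus strand): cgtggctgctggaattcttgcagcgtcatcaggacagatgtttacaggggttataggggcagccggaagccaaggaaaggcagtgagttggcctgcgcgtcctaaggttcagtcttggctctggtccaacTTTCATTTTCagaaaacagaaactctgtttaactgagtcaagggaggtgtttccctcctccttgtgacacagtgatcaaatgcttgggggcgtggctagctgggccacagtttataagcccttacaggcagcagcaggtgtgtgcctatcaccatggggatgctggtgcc
Cxcl10 (chr5.0:92348840-92349139, minus strand): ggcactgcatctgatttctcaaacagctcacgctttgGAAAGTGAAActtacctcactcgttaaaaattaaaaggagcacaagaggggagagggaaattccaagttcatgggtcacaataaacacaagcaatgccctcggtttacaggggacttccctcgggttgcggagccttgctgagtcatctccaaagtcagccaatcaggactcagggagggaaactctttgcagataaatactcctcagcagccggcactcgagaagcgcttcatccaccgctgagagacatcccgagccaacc
Ebi3 (chr17.0:55952373-55952672, plus strand): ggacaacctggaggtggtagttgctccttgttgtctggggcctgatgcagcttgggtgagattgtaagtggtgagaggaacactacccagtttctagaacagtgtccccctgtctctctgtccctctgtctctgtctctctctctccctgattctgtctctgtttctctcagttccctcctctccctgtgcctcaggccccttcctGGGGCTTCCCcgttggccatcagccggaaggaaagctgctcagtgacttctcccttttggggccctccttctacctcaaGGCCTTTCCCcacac
The response-element letters occurred in 14 of the 26 interferon-response genes of the list used below that have a promoter in the table (53.8%), against 3.99% of all 27025 genes with one and 3.44% of all 32851 promoters. They occurred in 9 of the 32 genes that were higher in the members than in Cd70-positive mature DCs and had a promoter (28.1%), and in 1 of the 73 that were lower (1.37%). The NF-kB-like letters occurred in 46.9% and 38.4% of those higher and lower genes, 26.9% of the interferon list and 22.9% of all genes. On GRCm38 in GENCODE M21, the genes of the first 3 promoters lie at chr19:34583531-34588731, chr12:26442746-26456452 and chr5:92346638-92348889, and Ebi3 at chr17:55952640-55957022. The selecting genes Cd70 and Il12b lie at chr17:57145997-57149777 and chr11:44400063-44414033. All are protein-coding. The 2 patterns were searched separately, so their matches may overlap, and a match describes letters, not binding.

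The first comparison asked how much of the mature DC population lacked both transcripts under each adenovirus. Of all barcodes in the mature DC gate (the rule without its Cd70 and Il12b terms), Ad-Null had 49.3% (44.4 to 54.2, Clopper-Pearson 95%; 208 of 422) that were members and Ad-MEM40 42.6% (38.7 to 46.5; 278 of 653). Ad-mIFNB had 48.3% (40.0 to 56.7; 71 of 147) and Ad-COMBO 35.7% (26.3 to 46.0; 35 of 98). The Ad-COMBO and Ad-MEM40 shares were the lowest, but the Ad-COMBO interval overlapped all others. Gate barcodes with a Cd70 UMI made up 19.0%, 26.2%, 20.4% and 44.9%, and those with Il12b but no Cd70 31.8%, 31.2%, 31.3% and 19.4%.

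A missing UMI depends on depth, and the Ad-MEM40 members had the fewest UMIs per barcode. With each barcode of at least 5000 UMIs thinned to 5000, the share without either transcript was 63.3% (58.3 to 68.1; 245 of 387) in Ad-Null and 60.6% (51.6 to 69.2; 77 of 127) in Ad-mIFNB. It was 47.7% (43.4 to 52.1; 251 of 526) in Ad-MEM40 and 42.3% (31.2 to 54.0; 33 of 78) in Ad-COMBO. At this depth both libraries that received ISF35 lay below both that did not. The Ad-Null interval overlapped neither, whereas the Ad-mIFNB interval overlapped both. At 10000 UMIs the shares were 58.1% (52.4 to 63.6), 45.9% (39.2 to 52.7), 52.3% (41.4 to 63.0) and 39.3% (26.5 to 53.2). The ranking was the same there, but the Ad-Null interval overlapped those of both ISF35 libraries. At 5000 UMIs the share with a Cd70 UMI was 8.53%, 22.8%, 9.45% and 34.6%, whereas Il12b without Cd70 was close to level at 28.2%, 29.5%, 29.9% and 23.1%. At 10000 UMIs the Cd70 share was 14.2%, 17.7%, 14.8% and 42.9%. There the intervals of Ad-Null (10.5 to 18.6) and Ad-MEM40 (12.9 to 23.4) overlapped. Il12b without Cd70 was less level at that depth, at 27.7%, 36.4%, 33.0% and 17.9%. In C1q-rich barcodes thinned to 5000 UMIs Cd70 was seen in 0%, 0.315%, 0.568% and 0%, and Il12b in 1.88%, 1.86%, 1.70% and 0%. Thinning also showed how incomplete the negative call is: of barcodes with a Cd70 UMI, only 39.5%, 77.2%, 53.6% and 76.9% still had one at 5000 UMIs. Some members may therefore express either gene below detection. The random draw behind the gate shares at 5000 UMIs kept Cd70 in 33 of 76 such barcodes in Ad-Null and 12 of 28 in Ad-mIFNB. Median depth before thinning was 16130.5, 7676, 12594.5 and 12061 UMIs in Cd70-positive barcodes. The shares that kept Cd70 thus do not rank the libraries by undetected Cd70.

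**Figure D1:**
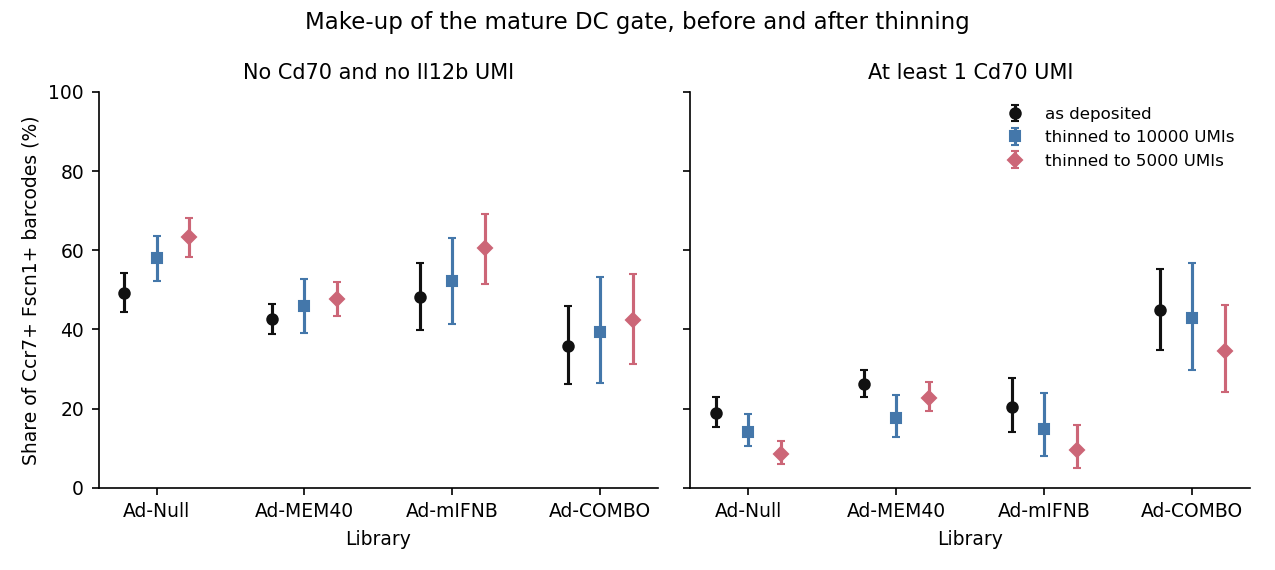
Share of mature DC gate barcodes (percent, 0 to 100) without Cd70 and Il12b UMIs (left) and with at least 1 Cd70 UMI (right) in the 4 libraries, as deposited and after thinning to 10000 or 5000 UMIs. Bars are Clopper-Pearson 95% intervals; at 5000 UMIs the share without either transcript was 63.3% in Ad-Null and 60.6% in Ad-mIFNB, against 47.7% in Ad-MEM40 and 42.3% in Ad-COMBO.

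Between depth bins the order was less even. Under 5000 UMIs the share without either transcript was 48.6%, 52.8%, 65.0% and 45.0%, at 5000 to 10000 UMIs 53.2%, 40.2%, 43.6% and 31.8%, at 10000 to 20000 UMIs 50.7%, 41.1%, 48.1% and 31.7%, and from 20000 UMIs 46.3%, 36.5%, 44.4% and 40.0%. Ad-MEM40 was below Ad-Null in each bin from 5000 UMIs up.

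The members' transcriptomes were then compared with those of Ad-Null. A gene counted as higher or lower when its log2 ratio, with 5 CPM added to both sides, was past 1.5-fold. Genes were read where 1 library of the pair reached 50 CPM and both together 50 UMIs. Ad-MEM40 had 69 of 2825 higher (2.44%) and 46 lower (1.63%), or 4.07% in all. Ad-mIFNB had 395 of 3041 higher (13%) and 154 lower (5.06%), or 18.1% in all. Ad-COMBO had 695 of 3065 higher (22.7%) and 687 lower (22.4%), or 45.1% in all. In summed cells, fewer cells that carry a transcript and less of it per cell cannot be told apart. The Poisson intervals were apart for all of the Ad-MEM40 genes, for 390 and 153 of the Ad-mIFNB genes, and for 640 and 575 of the Ad-COMBO genes. The count thus ran from few genes in Ad-MEM40 to many in Ad-COMBO, where 35 barcodes and the fewest UMIs also gave the widest intervals. Gene lists were read at a lower limit of 20 UMIs over both libraries. On that limit the median log2 ratio of all genes was near 0, 0.02 and -0.18 for the 3 treated libraries in order, and 283 and 256 of 9641, 855 and 853 of 9005, and 1302 and 2631 of 8753 genes were higher and lower. Low genes of Ad-COMBO therefore tended downwards as a whole, and its lower lists have to be read beside that.

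**Figure D2:**
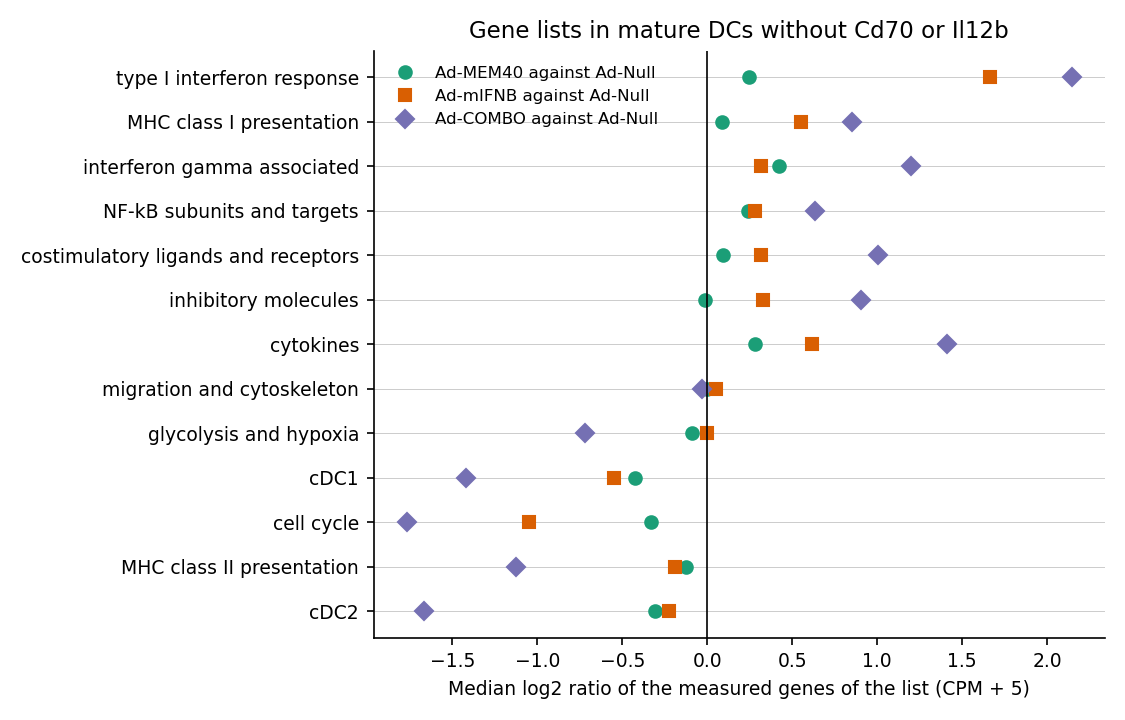
Median log2 ratio (CPM + 5) of the measured genes of 13 lists in double-negative mature DCs, with 1 symbol for each treated library over Ad-Null. The type I interferon response list stood highest in Ad-mIFNB (1.67) and Ad-COMBO (2.14), and was at 0.24 in Ad-MEM40. The cDC2, cell cycle, cDC1 and MHC class II lists were lowest in Ad-COMBO.

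Genes of the type I interferon response were higher in both libraries that received mIFNB. Of 34 measured genes, 31 were past 1.5-fold in Ad-mIFNB (median log2 ratio 1.67) and 34 in Ad-COMBO (2.14), and none was lower. In Ad-MEM40 none of the 34 was past 1.5-fold in either direction, and the median was 0.24. Ifit3, an antiviral protein that holds the 2 ISRE-like matches shown above, was at 88.1 (78.9 to 98.0), 115 (102 to 129), 625 (576 to 677) and 524 (455 to 599) CPM. It was 7.09-fold (6.19 to 8.13) higher in Ad-mIFNB than in Ad-Null. Rsad2, which encodes the antiviral enzyme viperin, was at 123 (112 to 135), 153 (139 to 169), 918 (858 to 980.2) and 1388 (1275 to 1508) CPM, 7.45-fold (6.66 to 8.35) and 11.3-fold (9.95 to 12.8) higher with mIFNB and with both viruses. Both genes fell into a low pair, Ad-Null and Ad-MEM40, and a high pair, with no overlap of intervals between pairs. For Ifit3 in Ad-MEM40, 1 barcode held 31.0% of the UMIs.

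Most of the list followed the same split. Isg15, a ubiquitin-like protein attached to targets in antiviral defence, was at 975, 1360.1, 4162 and 6920.4 CPM. Its remover Usp18, which also dampens interferon receptor signalling, was at 75.8, 81.9, 373 and 469 CPM. Irf7, the transcription factor that amplifies interferon production, was at 200.5, 219, 849 and 1196 CPM. In these 3 genes Ad-COMBO was the highest, above Ad-mIFNB alone, with Isg15 7.10-fold (6.76 to 7.46) above Ad-Null. Oasl1 was at 65.4, 92.0, 387 and 693 CPM, Ifit1bl1 at 20.1, 25.9, 280.5 and 305 CPM and Slfn4 at 15.2, 19.5, 130.3 and 159 CPM. Ifit1bl1 reached 13.9-fold (10.8 to 18.2) and 15.2-fold (11.3 to 20.4) over Ad-Null. It belongs to the Ifit family, whose near-identical members can share reads. The signal transducer Stat2 was at 80.3, 84.5, 188 and 313 CPM. The cytosolic RNA sensors Ifih1 and Ddx58 were at 106, 122, 243 and 429 CPM and 50.2, 63.9, 156 and 204 CPM. All 3 were higher in both mIFNB libraries and highest in Ad-COMBO.

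The interferon response was spread over many members rather than held by a few. With barcodes thinned to 5000 UMIs, the median member held 17 UMIs of the list (quartiles 11 to 28) in Ad-Null and 21 (13 to 35) in Ad-MEM40. With mIFNB alone it held 78 (48.75 to 107), and with both viruses 87 (49 to 136). Ranges overlapped, from 2 to 120 UMIs in Ad-Null and from 6 to 237 in Ad-mIFNB, but the quartile ranges of the libraries without and with mIFNB did not. An Ifit3 UMI was found in 19.4%, 18.0%, 69.0% and 69.2% of thinned members (34.1%, 20.5%, 69.0% and 54.3% unthinned) and in 21.4%, 23.5%, 77.3% and 57.1% of C1q-rich barcodes. In 3 libraries the share in members was below that in the C1q-rich barcodes, and macrophages are known to respond to interferon too. The part of free RNA in it was not tested.

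**Figure D3:**
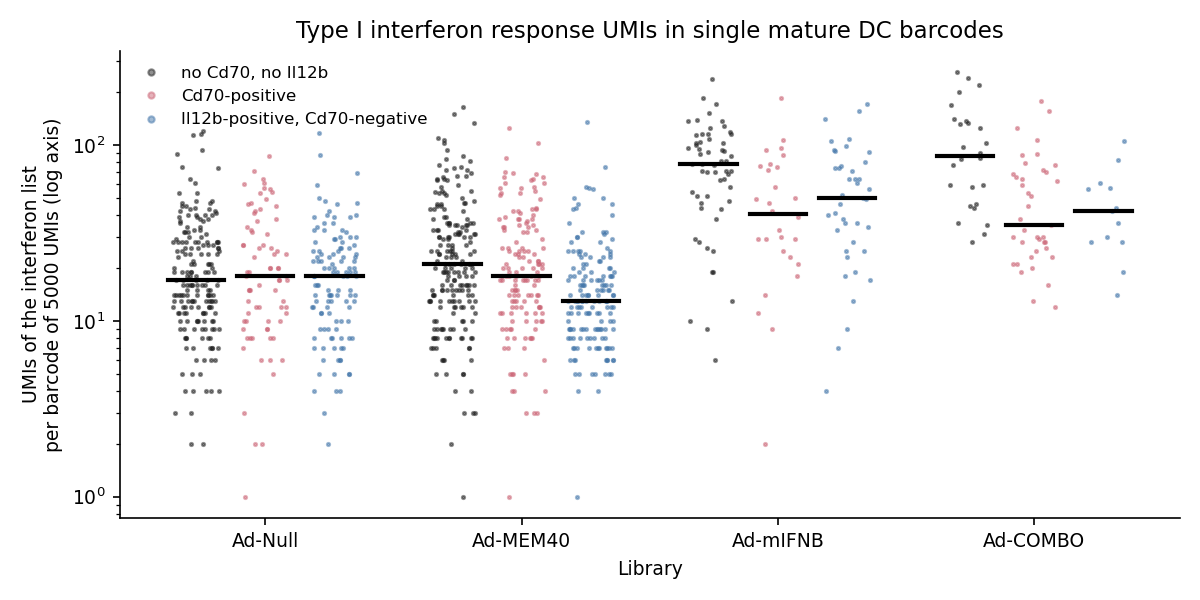
UMIs of the type I interferon response list per barcode of 5000 UMIs (log axis) in single double-negative, Cd70-positive and Il12b-positive Cd70-negative mature DC barcodes, by library, with 1 point per barcode and bars at the medians. The double-negative medians were 17, 21, 78 and 87 UMIs, against 18, 18, 40.5 and 35 in Cd70-positive barcodes.

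The other classes of mature DC had lower per-barcode medians in both mIFNB libraries, but not in Ad-Null. In Cd70-positive barcodes the list held a median of 18, 18, 40.5 and 35 UMIs per thinned barcode, and in Il12b-positive Cd70-negative barcodes 18, 13, 50 and 42. The list's median log2 ratio against Ad-Null was -0.17, 1.24 and 1.34 in the Cd70-positive class and -0.40, 1.36 and 0.92 in the Il12b-positive class, against 0.24, 1.67 and 2.14 in the members. For Rsad2 the log2 ratios were 0.30, 2.85 and 3.44 in members and -0.41, 2.19 and 2.21 in Cd70-positive barcodes. For Isg15 they were 0.48, 2.09 and 2.82 in members and 0.51, 1.23 and 1.32. Each class was set against its own Ad-Null barcodes, which its 3 ratios share, and with 1 library per treatment a difference in response between classes was not tested here. The difference in level was tested within libraries and is given further on.

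Of the 10 genes with the highest ratios to Ad-Null in each mIFNB library, most belonged to this response. Outside the list, Ly6c2, a surface protein also carried by monocytes and plasmacytoid DCs, was at 38.2 (32.2 to 44.9), 70.2 (60.5 to 81.1), 531 (486 to 579) and 1008 (912 to 1111) CPM, with 36.2% of the Ad-COMBO UMIs in 1 barcode. It was 13.9-fold (11.5 to 16.8) higher in Ad-mIFNB. Fam89a stood at 20.4, 32.3, 142 and 127 CPM, Sco1, a copper chaperone of cytochrome oxidase, at 7.32, 10.9, 26.1 and 91.8 CPM, and Phf11c at 10.2, 14.3, 61.5 and 96.8 CPM. The first of these was high in both mIFNB libraries alike, whereas Sco1 was far higher in Ad-COMBO than elsewhere.

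Antigen presentation went different ways for the 2 MHC classes. Of 20 measured genes of class I presentation, 10 were higher in Ad-mIFNB (median log2 ratio 0.55), 15 in Ad-COMBO (0.85) and none in Ad-MEM40 (0.09), and none was lower. The heavy chain H2-K1 was at 2209, 2638, 4246 and 4595 CPM and beta-2 microglobulin, B2m, at 2781, 2996, 4816 and 6466 CPM. The non-classical H2-T22 was at 126, 165, 454 and 501 CPM. The peptide transporter Tap1, at 297, 307, 389 and 452 CPM, and the immunoproteasome subunit Psmb8, at 1479, 1581, 1523 and 1313 CPM, differed less. Heavy and light chains thus differed more than these 2 genes of peptide supply.

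Class II genes were lower in Ad-COMBO. Of 15 measured genes, 10 were lower and 2 higher there (median log2 ratio -1.13), against 1 higher in Ad-MEM40 (-0.13) and 2 in each direction in Ad-mIFNB (-0.19). The class II chains H2-Ab1 and H2-Aa were at 6836, 5898, 5784 and 3130.1 CPM and 6518, 6265, 6620.0 and 4622 CPM, and the invariant chain Cd74 at 16205, 13885, 13266 and 8189 CPM. Genes of peptide loading were lower still in Ad-COMBO: H2-DMa was at 499.6 (477 to 522), 473 (448 to 500.1), 334 (298 to 372) and 91.8 (64.7 to 127) CPM and H2-DMb1 at 362, 306, 317 and 99.3 CPM. Ciita, the master activator of class II transcription, was at 192 (179 to 207), 148 (133 to 163), 143 (119.9 to 169) and 22.3 (10.2 to 42.4) CPM, and the Ad-COMBO value rests on 9 UMIs. The Ad-COMBO intervals of H2-DMa and Ciita overlapped no other library. The 2 genes of the list that were higher there were the lysosomal protease Lgmn, at 154, 180.3, 352 and 439 CPM, and Cd63, at 463, 766, 740.3 and 1147 CPM. The cells were sorted on MHC-II protein, which limits how low the protein can be but not the transcript.

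**Figure D4:**
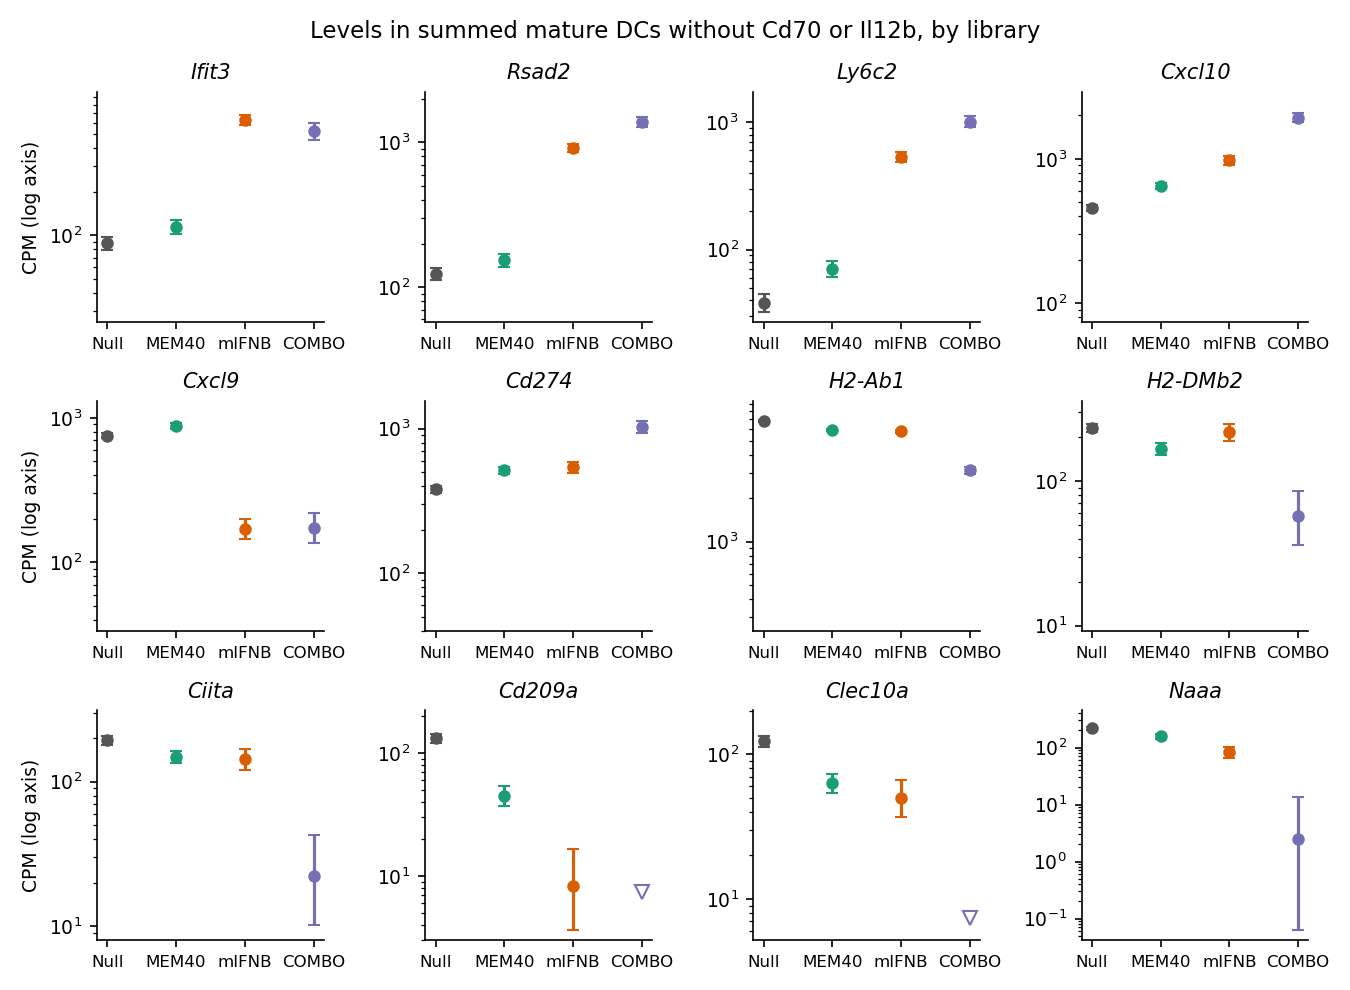
CPM (log axes, a range per panel) of 12 genes in summed double-negative mature DCs of the 4 libraries, with exact Poisson 95% intervals; open triangles mark the limit that 0 UMIs allows. Ifit3 and Rsad2 separated libraries with and without mIFNB, while H2-Ab1, Ciita and Naaa were lowest in Ad-COMBO.

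Genes associated with interferon gamma differed most in Ad-COMBO, where 13 of 17 were higher and 2 lower (median log2 ratio 1.20). Ad-MEM40 had 4 higher and none lower (0.42), and Ad-mIFNB 4 higher and 1 lower (0.31). The guanylate-binding protein Gbp2 was at 324, 474, 231 and 402 CPM and the immunity-related GTPase Iigp1 at 91.8, 179, 95.9 and 209 CPM. Both were higher with ISF35 than without it, alone as well as beside mIFNB. Gbp5 stood at 168, 199.8, 211 and 469 CPM and the signalling inhibitor Socs1 at 56.7, 65.0, 102 and 149 CPM, both highest in Ad-COMBO.

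NF-kB subunits and targets, which include genes downstream of CD40, had 6 of 24 higher in Ad-MEM40 (median log2 ratio 0.24), 5 of 23 in Ad-mIFNB (0.28) and 12 of 23 in Ad-COMBO (0.63), with 1 lower in Ad-COMBO. Nfkbia, the inhibitor that NF-kB induces, was at 1804, 2819.7, 1764 and 2519.5 CPM, and Tnfaip3, the deubiquitinase A20, at 249 (234 to 265), 411 (387 to 436), 253 (223 to 287) and 487 (421 to 559.6) CPM. Both were higher in the 2 libraries with ISF35 and level between Ad-Null and Ad-mIFNB. Tnfaip2 was at 66.9, 117, 45.9 and 69.5 CPM, highest in Ad-MEM40, and Sod2, the mitochondrial superoxide dismutase, at 58.8, 110.4, 43.8 and 34.8 CPM, also highest there and lowest in Ad-COMBO. Traf1, a CD40 pathway adaptor, was at 711, 1016, 1261 and 1219 CPM. The subunits themselves differed less: Rel was at 1220.3, 1219, 1162 and 1184 CPM and Relb at 395, 421, 593 and 563 CPM.

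Costimulatory genes were higher in Ad-COMBO, with 9 of 12 higher and 1 lower (median log2 ratio 1.01). In Ad-MEM40, 2 of 12 were higher and 1 lower (0.09), and in Ad-mIFNB 2 of 11 higher and 1 lower (0.32). Cd40, the receptor of the ligand in ISF35, was at 141 (129.8 to 154), 223 (206 to 242), 233 (203 to 265) and 283 (233 to 339.9) CPM. It was lowest in Ad-Null, and the Ad-mIFNB interval overlapped those of both ISF35 libraries. The B7 ligands were at 101, 107, 148 and 243 CPM for Cd80 and 262, 282, 318 and 541 CPM for Cd86, highest in Ad-COMBO. Tnfsf4, the OX40 ligand, went the other way, at 20.4, 21.4, 7.30 and 4.96 CPM. Inhibitory molecules had 9 of 15 higher and 3 lower in Ad-COMBO (0.90), 3 and 2 in Ad-mIFNB (0.33), and 1 and 0 in Ad-MEM40 (-0.01). Cd274, which encodes PD-L1, was at 380.1 (361 to 400.1), 514 (487 to 542), 542 (497 to 591) and 1025 (929 to 1129) CPM, and Pdcd1lg2, PD-L2, at 54.6, 48.8, 69.9 and 134 CPM. Ad-COMBO was above the other libraries in both ligands, and Cd274 was lowest in Ad-Null. The costimulatory ligands Cd80 and Cd86 and the inhibitory ligands Cd274 and Pdcd1lg2 were thus all highest in Ad-COMBO.

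Among cytokines, 4 of 16 were higher in Ad-MEM40 (median log2 ratio 0.28), 7 of 14 in Ad-mIFNB (0.62) and 7 of 12 in Ad-COMBO (1.41), with 0, 1 and 1 lower. Il15, which sustains natural killer and memory T cells, and its presenting receptor chain Il15ra were at 21.7, 43.9, 58.4 and 104 CPM and 37.9, 56.7, 58.4 and 154 CPM. Both were lowest in Ad-Null and highest in Ad-COMBO. Tnf was at 106, 159, 189.8 and 663 CPM and Il1rn, the interleukin 1 receptor antagonist, at 81.3, 119, 116 and 369.9 CPM. Il1b was at 903, 1395, 572 and 2142 CPM, but 1 barcode held 55.7% of its Ad-COMBO UMIs, and the level without it was 1002 CPM. Il6 was at 8.37, 10.1, 57.3 and 44.7 CPM. It was low in both libraries without mIFNB.

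Of 6 T cell-attracting chemokines, 1 was higher and 1 lower in Ad-MEM40, 2 higher and 3 lower in Ad-mIFNB, and 3 higher and 1 lower in Ad-COMBO (medians 0.36, -0.28 and 0.68). Ccl5, which attracts T cells, was at 2196 (2149 to 2244), 3579 (3508 to 3652), 7183 (7014 to 7355) and 8226 (7948 to 8511) CPM. The 4 libraries stood in rising order with no overlap of intervals, and 82.2%, 80.1%, 89.7% and 96.2% of thinned members had a UMI, against 16.7%, 25.8%, 28.4% and 28.6% of C1q-rich barcodes. Cxcl9, a CXCR3 ligand, was at 754 (727 to 782), 877 (842 to 913), 171 (146 to 199) and 174 (135 to 219.5) CPM, lower in both libraries with mIFNB. In those libraries 1 barcode held 51.8% and 67.1% of the UMIs, and the levels without it were 84.0 and 60.7 CPM. Cxcl10, another CXCR3 ligand, was at 459 (437 to 480.5), 648 (617 to 679), 974 (912 to 1038) and 1921 (1788 to 2062) CPM, so the pair went opposite ways with mIFNB. In Ad-COMBO 1 barcode held 50.3% of the Cxcl10 UMIs, and the level without it was 1010.2 CPM. Thinned shares with a Cxcl9 UMI were 51.3%, 46.4%, 15.5% and 23.1%, and with a Cxcl10 UMI 36.6%, 41.2%, 53.4% and 84.6%. In C1q-rich barcodes they were 38.0%, 39.8%, 22.7% and 25.7% for Cxcl9 and 35.6%, 43.9%, 56.2% and 71.4% for Cxcl10. Both ligands were thus common in C1q-rich barcodes too, and the part of free RNA in these shares was not tested.

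Ccl17 and Ccl22, CCR4 ligands typical of mature DCs, were at 253, 131, 158 and 261 CPM and 561, 572, 272 and 722 CPM. Ccl17 was 1.93-fold (1.70 to 2.19) lower in Ad-MEM40 than in Ad-Null, and 1 barcode held 48.6% of its Ad-COMBO UMIs, with 139.7 CPM left without it. Of 10 chemokines that attract myeloid cells, 2 were higher in Ad-MEM40 and none lower, 3 higher and 6 lower in Ad-mIFNB, and 3 higher and 5 lower in Ad-COMBO. Ccl4 was at 447, 434, 1839 and 1916 CPM, high in both mIFNB libraries. Ccl2 was at 152, 112, 71.9 and 22.3 CPM, Cxcl2 at 489, 448, 252 and 256 CPM and Ccl6 at 176, 163, 188 and 9.93 CPM, each lower in Ad-COMBO than in Ad-Null. In Ad-mIFNB 1 barcode held 45.5% of the Cxcl2 and 44.4% of the Ccl6 UMIs, and the levels without it were 143 and 108 CPM. The median of that list in Ad-COMBO was -0.43, and 0.27 when members were thinned to equal depth, which also left out 9 of the 35 Ad-COMBO barcodes.

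Among the genes with the highest ratios in Ad-MEM40, with at most 20% of their Ad-MEM40 UMIs in 1 barcode, Selenom, an endoplasmic reticulum selenoprotein, was at 18.0 (14.0 to 22.8), 88.6 (77.7 to 101), 21.9 (13.6 to 33.5) and 7.45 (1.54 to 21.8) CPM, 4.91-fold (3.74 to 6.52) above Ad-Null. Slc7a11, the cystine transporter subunit, was at 30.1, 91.3, 37.5 and 44.7 CPM, Pla2g7, a phospholipase of platelet-activating factor, at 17.0, 55.2, 4.17 and 9.93 CPM and Ly6i at 26.7, 72.1, 13.6 and 44.7 CPM. Selenom, Slc7a11, Pla2g7 and Ly6i were higher in Ad-MEM40 than in any other library. The Ly6i interval there (62.3 to 83.1) overlapped that of Ad-COMBO (26.5 to 70.6), where 1 barcode held 55.6% of the UMIs. Cxcl1, a neutrophil chemokine, was at 23.5, 59.7, 2.09 and 24.8 CPM and Procr, the protein C receptor, at 27.7, 57.5, 14.6 and 37.2 CPM. For Cxcl1, 1 barcode held 41.1% of the Ad-Null and 90% of the Ad-COMBO UMIs, with 14.0 and 2.72 CPM left without it. Mir155hg, the host gene of miR-155, and Dusp2, a phosphatase of MAP kinases, were higher in both ISF35 libraries, at 38.4, 92.8, 48.0 and 124 CPM and 121, 239, 245 and 501 CPM. Dusp2 was also above Ad-Null in Ad-mIFNB.

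Many marker genes of the precursor lineages were lower. The cDC2 list had 3 of 11 genes lower in Ad-MEM40, 4 in Ad-mIFNB and 9 in Ad-COMBO, with 0, 1 and 0 higher (medians -0.31, -0.23 and -1.67). Cd209a, a C-type lectin, was at 132 (120.5 to 144), 45.1 (37.4 to 53.9), 8.34 (3.60 to 16.4) and 0 CPM. It was 2.92-fold (2.39 to 3.60) lower in Ad-MEM40, 15.8-fold (7.95 to 36.8) lower in Ad-mIFNB and at least 17.7-fold lower in Ad-COMBO, where it had no UMI and the bound takes 3 UMIs in that library, or 7.45 CPM. Clec10a, another lectin, was at 123, 63.1, 50.0 and 0 CPM, at least 16.5-fold lower in Ad-COMBO by the same bound. Mgl2, at 121, 60.1, 214 and 29.8 CPM, was also lower in Ad-MEM40 and Ad-COMBO than in Ad-Null, but higher in Ad-mIFNB. In Ad-mIFNB 1 barcode held 35.6% of its UMIs, and the level without it was 142 CPM. Sirpa, present on cDC2 of all states, was at 97.2, 92.4, 82.4 and 81.9 CPM, with little difference. Ccr2, a monocyte chemokine receptor also on some cDC2, was at 87.3, 77.0, 54.2 and 4.96 CPM, and its 2 UMIs in Ad-COMBO gave a ratio of 17.6-fold (4.83 to 146).

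The cDC1 list had 4 of 12 genes lower in Ad-MEM40, 6 in Ad-mIFNB and 8 in Ad-COMBO, with 0, 1 and 1 higher (medians -0.43, -0.55 and -1.42). With the 4 genes at 0 in Ad-COMBO set at their limit of 3 UMIs, the median there was -0.82. Without doublet calls the medians were -0.20, 0.04 and -0.54, so the sign changed in Ad-mIFNB and was kept in the other 2 treatments. Naaa, a lipid hydrolase, was at 217 (203 to 233), 159 (144 to 174), 82.4 (65.2 to 103) and 2.48 (0.0628 to 13.8) CPM, with 1 UMI in Ad-COMBO. Xcr1 was at 37.4, 18.4, 8.34 and 2.48 CPM and Clec9a at 27.4, 14.6, 11.5 and 0 CPM. These surface markers were low in every library. The transcription factors Irf8 and Batf3 were not lower, at 619, 666, 743 and 782 CPM and 142, 139.7, 130.3 and 156 CPM. Thinned members with an Xcr1 UMI were 6.81%, 4.27%, 0% and 0%, against 4.45%, 6.32%, 4.55% and 5.71% of C1q-rich barcodes, so these shares were close to the background. Cd209a was in 18.8%, 9.0%, 5.17% and 0% of members against 7.16%, 5.44%, 0% and 0%.

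Which lineage the members came from was not resolved by these markers. Per thinned barcode, 63.9%, 68.7%, 75.9% and 88.5% of members had more UMIs of the cDC1 list than of the cDC2 list. That order rested on Irf8 and the interferon-inducible Ifi205: without them, a setting chosen after seeing the data, 30.9%, 27.5%, 36.2% and 34.6% had more cDC1 UMIs, 55.0%, 55.0%, 43.1% and 23.1% more cDC2 UMIs, and 6.28%, 6.64%, 10.3% and 26.9% none of either.

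Genes of the cell cycle were lower in both mIFNB libraries, with 14 of 17 lower in Ad-mIFNB (median -1.05) and 16 of 17 in Ad-COMBO (-1.77), against 1 in Ad-MEM40 (-0.33), and none higher. Of these genes, 4 were at 0 in Ad-COMBO, and with these at their limit its median was -1.09. Without doublet calls it was -1.14. Top2a, the topoisomerase of dividing cells, was at 86.8, 65.0, 15.6 and 9.93 CPM and Mki67 at 102, 72.9, 32.3 and 24.8 CPM. The histone genes Hist1h2ap and Hist1h2ae were at 301, 71.0, 55.3 and 4.96 CPM and 141, 45.4, 107 and 0 CPM. In Ad-mIFNB 1 barcode held 71.7% and 74.8% of their UMIs, and the levels without it were 16.2 and 28.1 CPM. Hist1h2ap was 4.24-fold (3.63 to 4.97) lower in Ad-MEM40 and 5.44-fold (4.13 to 7.31) lower in Ad-mIFNB, and with 2 UMIs in Ad-COMBO the ratio was 60.6-fold (16.7 to 501). Histone genes are close copies of each other and their transcripts mostly end without a poly(A) tail, so these counts are uncertain. Pcna, a DNA replication clamp, was at 118, 96.9, 132 and 149 CPM and did not follow the rest of the list.

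Glycolysis genes were lower in Ad-COMBO, with 10 of 16 lower (median -0.72), against none in Ad-MEM40 (-0.09) and none lower and 1 higher in Ad-mIFNB (0.00). Gapdh was at 1609, 1784, 1620.3 and 938 CPM, Ldha at 454, 411, 392 and 161 CPM and Pgam1 at 262, 267, 301 and 99.3 CPM. Migration and cytoskeleton genes were near level, with medians of 0.00, 0.05 and -0.03. Actb was at 18568, 19526, 16676 and 20007 CPM, while Marcksl1 was at 506, 629, 754 and 1124 CPM and Vim at 1489.5, 1537, 923 and 799 CPM. The survival list had 1, 3 and 6 of 18 higher (0.13, 0.16 and 0.29). Bcl2a1b, an anti-apoptotic gene with close paralogs, was at 1387, 1491, 1787 and 2358 CPM. Dissociation and heat stress genes had no higher member in Ad-MEM40 or Ad-mIFNB, and 6 of 16 in Ad-COMBO (0.18).

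A few other genes had large ratios. Nrp1, a semaphorin coreceptor, was at 57.2, 53.3, 13.6 and 17.4 CPM and Gmfg, an actin regulator, at 94.1, 123, 28.2 and 44.7 CPM, both lower with mIFNB. Gsn, the actin-severing protein gelsolin, was at 184, 122, 122 and 17.4 CPM, and Dab2, an endocytic adaptor, at 139, 102, 73.0 and 12.4 CPM, both lowest in Ad-COMBO. Transcripts of the transgenes could not be read in these cells: Cd40lg had no UMI in any member, and Ifnb1 had 3 UMIs, all in 1 Ad-Null barcode.

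Within libraries, the members could be compared with the other classes of mature DC by a test, since each of the 4 libraries holds all classes. UMIs were summed per library and class and tested with edgeR with the library as a block, so n = 4 pairs. Against the 325 Cd70-positive barcodes, 38 of 8383 genes were higher in the members (0.453%) and 102 lower (1.22%), 1.67% in all, at a Benjamini-Hochberg adjusted p under 0.05. At an unadjusted p under 0.05 there were 991 genes, and DESeq2 called 49 higher and 96 lower. Of the 140 genes called by edgeR, 111 were also called by DESeq2, and 135 had the same sign in all 4 libraries. The Cd70-positive class was slightly deeper, with a median of 16130.5, 7676, 12594.5 and 12061 UMIs, and 62.5%, 55.6%, 70% and 52.3% of it also had Il12b. After thinning, 86 of the 140 were called again. Log2 fold changes below are members over Cd70-positive, ± SE, with edgeR's adjusted p.

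Of 34 interferon response genes, 8 were higher in the members than in Cd70-positive mature DCs of the same libraries and none lower (median 0.53, against 0.02 over all genes). The summed list was at 4588.5, 5728.5, 15849.8 and 23085 CPM in members and 4629.9, 4751, 11219 and 11137 CPM in Cd70-positive barcodes, so in Ad-Null the sum was not higher in members. Cxcl10 was at 459 against 267, 648 against 170.1, 974 against 228 and 1921 against 379 CPM in members against Cd70-positive (1.81 ± 0.24, adjusted p = 0.005). Without its richest barcode the Ad-COMBO member level was 1010.2 CPM. Ifit3 was at 88.1 against 36.1, 115 against 31.6, 625 against 333 and 524 against 113 CPM (1.56 ± 0.23, adjusted p = 0.0072). Both genes were higher in members in all 4 libraries. Ifit2 and Rsad2 were also higher (1.26 ± 0.17, adjusted p = 0.0053, and 0.96 ± 0.20, adjusted p = 0.037). Of the class II list, 3 of 15 genes were higher (median 0.56). H2-DMb2, a peptide-loading chain, was at 233 against 124, 166 against 91.8, 218 against 62.1 and 57.1 against 34.3 CPM (1.07 ± 0.17, adjusted p = 0.011), and H2-Ab1 at 6836 against 4986, 5898 against 4403, 5784 against 3362 and 3130.1 against 1894 CPM (0.62 ± 0.14, adjusted p = 0.046). Class I presentation had none of 20 called (0.05). Ltb, a lymphotoxin chain, was at 48.1 against 19.3, 33.8 against 17.0, 115 against 30.1 and 52.1 against 7.15 CPM (1.54 ± 0.25, adjusted p = 0.011), with 71.4% of the Ad-COMBO UMIs in 1 barcode.

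Genes lower in the members included cytokine and costimulatory genes. Costimulatory ligands and receptors had 6 of 13 lower and none higher (median -0.77). Cd40 was at 141 against 239, 223 against 682, 233 against 543 and 283 against 442 CPM (-1.05 ± 0.19, adjusted p = 0.017) and Cd80 at 101 against 174, 107 against 235, 148 against 214 and 243 against 390.3 CPM (-0.77 ± 0.15, adjusted p = 0.024). Both were lower in the members of every library. Tnfsf4 (-1.93 ± 0.28, adjusted p = 0.0068) and Tnfsf9, the 4-1BB ligand (-0.88 ± 0.14, adjusted p = 0.012), were lower as well. In the IL-12 family, 2 of 3 tested genes were lower. Ebi3, the subunit shared by interleukins 27 and 35, whose promoter is shown above, was at 30.8 against 114, 57.1 against 396, 60.5 against 190.4 and 102 against 518 CPM (-2.18 ± 0.19, adjusted p = 0.00016). Il27, its partner, was at 2.35 against 17.4, 8.64 against 80.7, 9.38 against 32.1 and 22.3 against 226 CPM (-2.91 ± 0.24, adjusted p = 0.00012). Cytokines had 4 of 14 lower and 1 higher (-0.23), with Il6 at 8.37 against 46.0, 10.1 against 116, 57.3 against 100.2 and 44.7 against 153 CPM (-2.15 ± 0.34, adjusted p = 0.0094). In Ad-mIFNB 1 barcode held 42% of the Il6 UMIs of the Cd70-positive class. Without it that class was at 59.6 CPM, close to the 57.3 CPM of the members.

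The lowest ratios otherwise included Cd81, a tetraspanin, at 17.8 against 131, 44.7 against 285, 38.6 against 168 and 32.3 against 380.3 CPM (-2.74 ± 0.18, adjusted p = 1.6e-05). Dll4, a Notch ligand, was at 0.784 against 4.35, 4.51 against 83.6, 1.04 against 16.0 and 14.9 against 112 CPM (-3.56 ± 0.33, adjusted p = 0.00034), and 1 barcode held 87.5% of its UMIs in the Cd70-positive class of Ad-mIFNB. Scin, an actin-severing protein, and Rasa2, a Ras GTPase activator, were lower too (-2.17 ± 0.21, adjusted p = 0.00042, and -1.49 ± 0.15, adjusted p = 0.00049). Procr was at 27.7 against 52.2, 57.5 against 548, 14.6 against 40.1 and 37.2 against 309 CPM (-2.26 ± 0.35, adjusted p = 0.0089). Every one of these was lower in the members of all 4 libraries. The chemokines Ccl22 and Ccl5 were lower in members (-1.27 ± 0.27, adjusted p = 0.037, and -0.81 ± 0.18, adjusted p = 0.045), with Ccl22 at 561 against 773, 572 against 2237, 272 against 1120.1 and 722 against 1218 CPM. The survival gene Bcl2l1, which encodes Bcl-xL, was lower (-1.54 ± 0.23, adjusted p = 0.0081), as was Irf8 (-0.80 ± 0.15, adjusted p = 0.02). The genes Plat, Lta, Dusp14, Slamf1, Tnfsf15 and Cd200 were also called lower. For Lta, 1 barcode held 63.1% of the Ad-mIFNB and another 58.8% of the Ad-COMBO UMIs of the Cd70-positive class. Without them the class was at 84.4 and 10.6 CPM, against 20.9 and 17.4 CPM in members. NF-kB targets (1 of 23 lower), inhibitory molecules (1 of 15 lower), cell cycle (0 of 16) and myeloid chemokines (0 of 10) had few or no calls. Leaving out each library in turn, 5 calls held throughout, and all were lower: Cd81, Il27, Ebi3, Scin and Rasa2. Without Ad-MEM40 1 higher and 5 lower calls were left, and without Ad-COMBO there were 85 and 206.

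**Figure D5:**
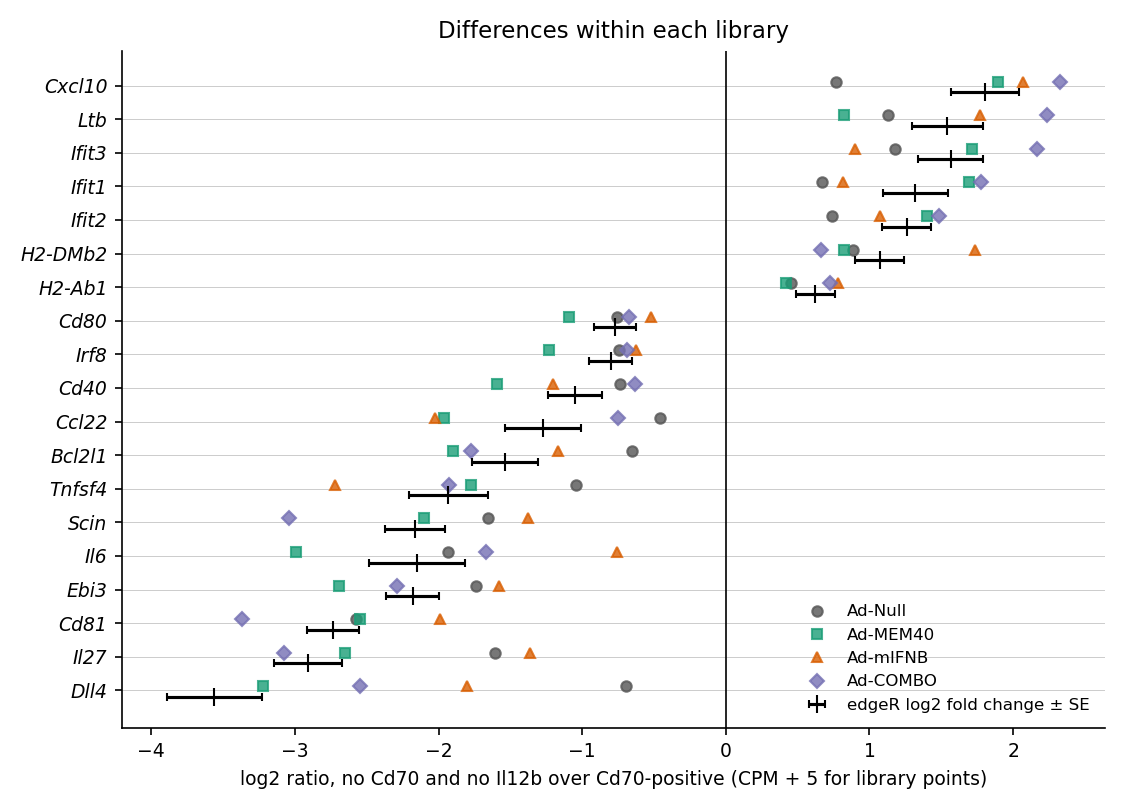
Log2 ratio of double-negative over Cd70-positive mature DCs for 19 genes: 1 symbol per library (CPM + 5) and the edgeR log2 fold change ± SE in black. Cxcl10, Ifit3 and H2-DMb2 lie right of 0 and Ebi3, Cd81 and Il27 left of 0 in all 4 libraries.

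Some calls rested on single barcodes and describe those barcodes. Hspb1, a small heat shock protein, had a log2 fold change of 3.86, but 99.5% of its UMIs in Ad-mIFNB members came from 1 barcode. Tyrp1, a melanoma pigment gene, had 72.0% of its Ad-MEM40 UMIs in 1 barcode.

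Against the 403 Il12b-positive Cd70-negative barcodes fewer genes were called, with 10 of 8945 higher (0.112%) and 32 lower (0.358%), 0.47% in all, by edgeR. At an unadjusted p under 0.05 there were 783 genes, and DESeq2 called 32 higher and 46 lower. H2-DMb2 was again higher in the members, at 233 against 139, 166 against 80.4, 218 against 83.1 and 57.1 against 18.9 CPM (1.06 ± 0.15, adjusted p = 0.011). Fabp5, a fatty acid-binding protein, was at 3432 against 1834, 3583 against 1813, 2330.4 against 1465 and 2668 against 519 CPM (1.21 ± 0.23, adjusted p = 0.041) and Gpr183, an oxysterol receptor that guides DC migration, at 189 against 112, 166 against 74.9, 202 against 102 and 226 against 33.0 CPM (1.16 ± 0.21, adjusted p = 0.036). All 3 were higher in the members of the 4 libraries. The interferon list had 2 of 34 higher (median 0.66), Usp18 and Xaf1 (0.84 ± 0.16, adjusted p = 0.041, and 0.89 ± 0.16, adjusted p = 0.036). Class II presentation had 2 of 15 higher, H2-DMb2 and Ciita. Retnla had the largest log2 fold change, 2.68, with 84.8% and 84.9% of its UMIs in 1 barcode of Ad-Null and of Ad-MEM40.

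Lower in the members were Cd81, at 17.8 against 65.9, 44.7 against 156, 38.6 against 87.3 and 32.3 against 222 CPM (-1.80 ± 0.19, adjusted p = 0.0013), Il6, at 8.37 against 34.7, 10.1 against 33.5, 57.3 against 120.3 and 44.7 against 118 CPM (-1.53 ± 0.20, adjusted p = 0.0052), and Ccl3, a chemokine of inflammation, at 112 against 208, 145 against 338, 259.6 against 882 and 216 against 622 CPM (-1.31 ± 0.16, adjusted p = 0.0046). Each was lower in every library. For Il6 in Ad-COMBO, however, 1 barcode held 80% of the UMIs of the Il12b-positive class. Without it that class was at 25.3 CPM, below the 44.7 CPM of the members. Mab21l3, Fgfbp3, Slc27a3, Scin, Kctd14 and Nudt9 were also called lower, with log2 fold changes from -2.15 to -1.31. For Kctd14, 1 barcode held 95% of the Ad-COMBO UMIs of the Il12b-positive class. Without it that class was at 5.05 CPM there, against 29.8 CPM in the members. Gpnmb was called lower too, with 92.8% of its Ad-Null UMIs in the Il12b-positive class in 1 barcode. Several genes called against Cd70-positive cells were not called here. Ebi3 had -0.62 ± 0.17, adjusted p = 0.18, Cd40 -0.31 ± 0.16, adjusted p = 0.65, Cd80 0.05 ± 0.14, adjusted p = 0.98 and Ccl22 0.01 ± 0.17, adjusted p = 1. Costimulatory genes had 0 of 13 called (-0.05). Cxcl10 and Ifit3 had 1.43 ± 0.31, adjusted p = 0.074 and 1.19 ± 0.29, adjusted p = 0.11. Whether these genes differ more from one class than from the other was not tested. No call held when each library was left out in turn. Without Ad-MEM40 there were 0 calls, and without Ad-COMBO 36 higher and 61 lower.

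Members of 1 library also varied among themselves. Among thinned members the variance of UMIs over their mean had a median of 1.21 over 2504 genes in Ad-Null, 1.21 over 2515 in Ad-MEM40 and 1.28 over 2646 in Ad-mIFNB. Ccl5 was among the highest on this measure, at 42.5, 51.7 and 88.4, with means of 14.2, 21.1 and 43.3 UMIs per barcode. Its largest value in Ad-mIFNB was 268. The measure tends to rise with the mean, so it does not rank genes or libraries by relative variation. Malat1, a nuclear long non-coding RNA, was at 58.8, 62.0 and 63.8. Cxcl10 was at 25 in Ad-Null, with a mean of 2.73 UMIs and a largest value of 62. Fabp5 was at 22 in Ad-Null and 27.5 in Ad-MEM40, and Cxcl9 at 16.3 and 22.8. These chemokines were carried unequally by barcodes that the rule treats alike.

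Markers of other cell types were present in the members to differing degrees. The summed macrophage list was at 407, 531, 189 and 258 CPM, against 3702, 5845, 3243 and 4265 CPM in the other barcodes that passed. Its defining genes C1qa, C1qb and C1qc were limited by the rule. Monocyte genes summed to 847, 1029, 1818 and 1789.7 CPM (1537, 1505, 2664 and 2066 in the other barcodes) and plasmacytoid DC genes to 604, 688, 1619 and 1738 CPM (773, 722, 1416 and 1541). Both sums were higher with mIFNB, and the lists include Ly6c2 and Bst2, which are known to respond to interferon. Bst2 was at 363, 468, 1199 and 1589 CPM. Median log2 ratios to Ad-Null did not all follow the sums. For monocyte genes they were -0.39 in Ad-mIFNB (0.49 without doublet calls) and -1.30 in Ad-COMBO, with 5 of 7 lower there. For plasmacytoid genes they were 0.85 and -0.72, with 6 of 9 lower in Ad-COMBO. With genes at 0 set at their limit, the Ad-COMBO medians were -0.66 and -0.26. Siglech, the defining plasmacytoid marker, had 73% of its Ad-mIFNB UMIs in 1 barcode. Neutrophil, B cell, T or NK cell, fibroblast and erythroid lists each summed to under 20 CPM, and all 6 mast cell and basophil genes were at 0. Endothelial genes summed to 68.8, 86.0, 127 and 171 CPM, above the 44.6, 48.8, 109 and 99.1 CPM of the other barcodes, and the part of these cells in the results was not tested. Melanoma genes were at 32.2, 595, 49.0 and 29.8 CPM, against 785, 1258, 545 and 349 CPM in the other barcodes. In Ad-MEM40 all 8 were higher than in Ad-Null, with a median log2 ratio of 2.61, and 1 barcode held 75.9% of the 1584 UMIs. Without doublet calls the median was 0.83. Without the barcode richest in them, the levels were 30.9, 149, 20.2 and 25.3 CPM. Selenom and the other genes higher in Ad-MEM40 had at most 20% of their UMIs in 1 barcode, by the rule that named them, and a part of melanoma RNA in them was not tested.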

How the data were processed

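Values were UMI counts per gene and barcode, as deposited, in whole numbers. Per the file headers the matrices came from Cell Ranger 6.0.0, while the submitters' processing notes name Cell Ranger 3.0, mm10 and Seurat 4.0. Per the labels, up to 10000 cells per library were loaded and 50000 reads per cell sequenced. Members and gene lists were chosen with earlier results of these data known.

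UMIs were summed over barcodes per library and class. With 1 library per treatment no test between treatments was possible, and Poisson and Clopper-Pearson intervals (95%) cover counting error only. Doublets were called with Scrublet in scanpy 1.11.5 (by an expected share of 0.8% per 1000 barcodes in Ad-Null and Ad-MEM40, by its automatic threshold in the others) and kept, except in an alternative. Classes within libraries were tested with edgeR 4.0.16 (quasi-likelihood, TMM, filterByExpr, library as block, Benjamini-Hochberg) in R 4.3.3, tested first on simulated data. DESeq2 1.42.0 was an alternative. The p-values rest on 4 libraries and are paired by library.

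Genes named between libraries were the 10 highest and 10 lowest ratios past 1.5-fold with UMIs in at least 5 barcodes of the higher library and at most 20% of them in 1 barcode. Genes named within libraries were the 10 highest and 10 lowest fold changes among calls with a mean of at least 20 CPM. Genes for haemoglobin, antigen receptor segments and ribosomal proteins were left out, as were mitochondrial, Y-linked, Xist, Gm and Rik genes. Other named genes belong to the 32 lists or were chosen after their values were seen. Of 409 list genes 404 were found. Promoters are from RefSeq (GRCm38.p6). Some genes that met these rules are not reported here.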

Additional observations from a re-analysis of the deposited data

How the results depend on the processing

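Thinning each barcode to 5000 UMIs moved the share of gate barcodes without Cd70 and Il12b to 63.3% in Ad-Null, 60.6% in Ad-mIFNB and 47.7% in Ad-MEM40, and thinning to 10000 UMIs moved Ad-Null to 58.1%. With the minimum of 50 CPM dropped and that of 50 UMIs lowered to 20, 282 genes were higher and 256 lower in Ad-MEM40, 855 and 850 in Ad-mIFNB, and 1301 and 2628 in Ad-COMBO, as more genes of few UMIs enter. With members thinned, Ad-MEM40 had 106 higher and 71 lower and Ad-mIFNB 259 lower, and without doublet calls Ad-MEM40 had 84 lower. Against Cd70-positive barcodes, no filter on low counts gave 195 higher and 217 lower, thinning 143 higher, and leaving out doublet calls 85 higher. Without the library block there were 0 higher and 1 lower, and 0 and 0 against Il12b-positive barcodes, so these calls rest on pairing within libraries. Against Il12b-positive barcodes, DESeq2 gave 32 higher, no filter 162 higher and 148 lower, thinning 100 and 111, and leaving out doublet calls 22 and 50. Leaving out 1 library at a time gave from 1 to 85 higher and 5 to 206 lower against Cd70-positive barcodes, and from 0 to 36 higher and 0 to 61 lower against Il12b-positive ones. The lowest counts came without Ad-MEM40 and the highest without Ad-COMBO, and the cause was not tested. Of the genes named within libraries, 274 values under an alternative kept their side of the threshold and 114 lost it. None changed direction. Of the genes named against Ad-Null, 390 values moved by less than their counting error and 30 by more. List medians have no counting error here, and 497 were counted as unchanged and 15 as moved. Those counted as unchanged can still differ in sign. The plasmacytoid median of Ad-MEM40 went from -0.36 to 0.098 without doublet calls. Ad-COMBO rests on 35 member barcodes, and no treatment had a replicate.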
